A study of Mus musculus with 16 samples.

Results

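The mitochondrial carrier family SLC25 is the group of genes described here, in the livers of 16 mice. Members were taken by symbol, as the genes named Slc25a followed by a number alone. Among 35502 genes counted, 47 have such a symbol, 1 of which was not analysed here, and the other 46 are the members in every count, sum and share given. Of the 46, 40 had enough reads to be tested among 13379 tested genes, and 6 did not. The choice of members used no measured value.

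Carriers of this family are small proteins that sit mostly in the inner mitochondrial membrane and exchange metabolites, nucleotides, phosphate, cofactors and metals between the matrix and the cytosol. In liver they serve the export of citrate for fat and sterol synthesis, the malate-aspartate shuttle, the ornithine and citrulline exchange of the urea cycle, and the exchange of ADP for ATP. Most are made in the cytosol and inserted into the membrane by the TIM22 complex.

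The mice form 4 groups of 4, with 1 RNA-seq library per liver and no pooling. LERKO mice carry Cre and lack oestrogen receptor alpha, the hormone-activated transcription factor encoded by Esr1, in the liver; controls are floxed mice without Cre. Each genotype was labelled sexually mature or immature, and the sources used here do not say whether this refers to the knockout or to the collection of tissue. No Cre driver, sex, strain or age is stated in the sources used here. The 4 groups are called mature control, mature LERKO, immature control and immature LERKO, and libraries are numbered 1 to 4 within each. P-values measure the spread between these mice.

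Total counts ran from 18123974 to 23213905 per library. At each stage all 4 LERKO livers had less Esr1 than any control, with log2 fold changes of -2.33 in mature and -2.50 in immature mice (adjusted p = 1.57e-05 and 6.55e-06, edgeR quasi-likelihood test). It was the only gene with an adjusted p below 0.05 in either comparison. Summed hepatocyte markers (8 genes, among them Alb and Apoa1) stood between 87888 and 153505 CPM in all libraries, where CPM is the usual depth-scaled count, after TMM scaling. Skeletal muscle transcripts were present in some livers and are given beside the member they move with.

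The family was present at very unequal levels. Expressed per kb of annotated exon, so that genes of different length can be compared, tested members spanned a 3039-fold range of mean level. The 3 highest, Slc25a47, Slc25a5 and Slc25a39, held 49.7% of the family's summed CPM per kb, and the 8 highest held 76.3%. That sum was 1295 ± 71.3 CPM per kb in mature controls and 1199 ± 140.4 in mature LERKO (SD, n = 4 each). Immature controls stood at 1255 ± 80.8 and immature LERKO at 1284 ± 95.4 CPM per kb (SD, n = 4 each), so the means of any pair of groups differed by less than the larger of their SDs. Exon length was taken over all annotated transcripts, which understates genes with long, rarely used exons.

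**Figure D1:**
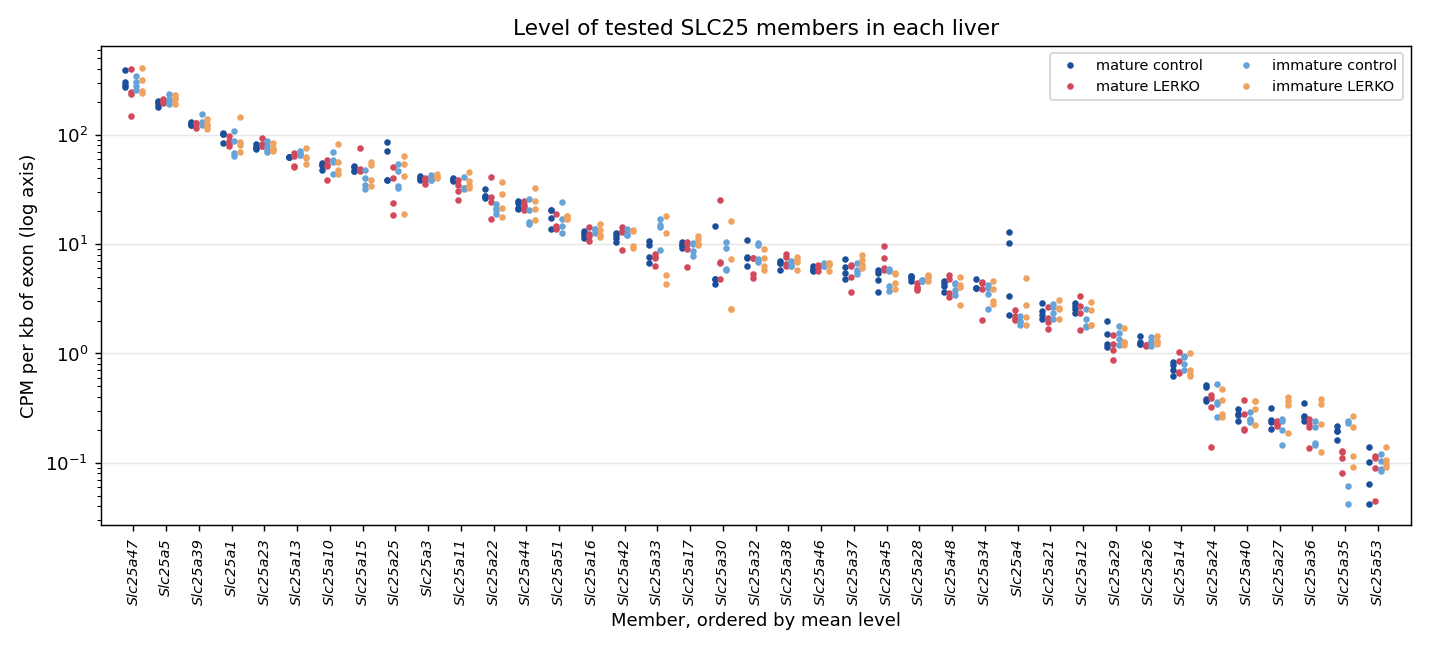
Level of 39 of the 40 tested members in CPM per kb of exon on a log axis, with members ordered by mean level and 1 point per liver coloured by group. Slc25a47 and Slc25a5 lead at 293 and 205 CPM per kb, and the points of the 4 groups lie over each other for most members; Slc25a30 and Slc25a4 have single livers far above the rest.

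Slc25a47, an orphan carrier known for its restriction to liver, was the highest member at 293 ± 69 CPM per kb (SD over 16 livers). It lies at chromosome 12, 108836046 to 108856815, forward strand of GRCm38. Beside it lies Slc25a29, which starts at 108835883 and runs to 108825873 on the reverse strand. Slc25a29, a carrier of basic amino acids, stood at 1.37 ± 0.283 CPM per kb. On the CPM scale Slc25a47 held 913, 856, 1167 and 825 CPM in mature controls 1 to 4 and 1189, 729, 442 and 711 CPM in mature LERKO 1 to 4. In immature mice it was at 917, 832, 1035 and 761 CPM in controls 1 to 4, against 943, 713, 1226 and 749.6 CPM in LERKO livers. The groups overlapped, and mature LERKO held both a liver near the top and the lowest of all 16, library 3. The other tested members with no settled substrate were far lower, from 6.23 ± 0.374 CPM per kb for Slc25a46, a carrier homologue of the outer membrane linked to mitochondrial shape, down to 0.0965 ± 0.0285 for Slc25a53.

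Among transcripts of the ADP/ATP carriers, Slc25a5, the second ADP/ATP carrier, was the highest at 205 ± 15 CPM per kb. Slc25a4, the ADP/ATP carrier of heart and skeletal muscle, stood at 3.57 ± 3.26 CPM per kb, and Slc25a31, the germ cell form, had 1 read in all 16 libraries. Slc25a5 exceeded Slc25a4 by 13.7 to 127-fold per kb, with the lowest ratio in mature control 1. These paralogues are close in sequence, and the sources used here do not state how reads matching both were counted. On the CPM scale Slc25a5 stood at 319 ± 19.2 CPM in mature controls, 333 ± 10.9 in mature LERKO, 349 ± 31.2 in immature controls and 352 ± 26.1 in immature LERKO (SD, n = 4 each). Slc25a3, the phosphate carrier that supplies ATP synthase, stood at 40.2 ± 2.18 CPM per kb and had the smallest spread within groups of all tested members, 0.0742 on the log2 scale.

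Carriers of citric acid cycle intermediates held 14.6% of the family's CPM per kb. Slc25a1, which exports citrate for acetyl-CoA supply in the cytosol, stood at 90.6 ± 19.8, Slc25a10, the dicarboxylate carrier, at 54.4 ± 10.4 and Slc25a11, the oxoglutarate and malate carrier, at 35.9 ± 4.98 CPM per kb. Slc25a21, a carrier of longer oxodicarboxylates, stood at 2.39 ± 0.392. On the CPM scale Slc25a10 was at 181 ± 11.3 CPM in mature controls, 175 ± 29.96 in mature LERKO, 198 ± 37.6 in immature controls and 198 ± 58.6 in immature LERKO (SD, n = 4 each). For the aspartate and glutamate exchange of the malate-aspartate shuttle, the liver form citrin, Slc25a13, stood at 63.1 ± 6.63 and its paralogue aralar, Slc25a12, at 2.36 ± 0.508 CPM per kb. Slc25a13 exceeded Slc25a12 in every liver, by 15.1 to 40.8-fold per kb. The glutamate carrier Slc25a22 stood at 25.8 ± 6.73 CPM per kb, and its paralogue Slc25a18 had 4 reads in all.

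Slc25a13 was nearly the same in all 4 mature controls, at 239.8, 239.9, 238 and 238 CPM, and more scattered in mature LERKO, at 243, 258, 197 and 192 CPM. In immature controls it was at 261, 248, 248 and 270.4 CPM, each above each mature control, and in immature LERKO at 288, 232, 237 and 207 CPM. The log2 fold change of mature against immature controls was -0.10 (SE 0.12), with an adjusted p of 0.829 in edgeR.

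Glutathione and iron carriers were uneven as well. Slc25a39, which brings glutathione into the matrix, stood at 127 ± 9.21 CPM per kb, and its paralogue Slc25a40 at 0.278 ± 0.0557, 332 to 649-fold lower per kb in single livers. Slc25a39 stood at 346 ± 11.2 CPM in mature controls, 344 ± 15.1 in mature LERKO, 368 ± 38.1 in immature controls and 344 ± 29 in immature LERKO (SD, n = 4 each). The mitoferrins, which import iron, were near each other: Slc25a37, the form best known from red cell precursors, stood at 6.01 ± 1.04 and Slc25a28, the broadly expressed form, at 4.65 ± 0.428 CPM per kb. Their ratio ran from 0.822 to 1.65, so neither was the higher one in every liver. On the CPM scale Slc25a37 stood at 35.8 ± 6.27 CPM in mature controls, 32.2 ± 7.88 in mature LERKO, 35.5 ± 3.6 in immature controls and 41.4 ± 4.91 in immature LERKO (SD, n = 4 each).

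Of the calcium-regulated carriers of ATP-magnesium and phosphate, Slc25a23 stood at 78.5 ± 6.32, Slc25a25 at 44.5 ± 18.3 and Slc25a24 at 0.369 ± 0.104 CPM per kb, and Slc25a41 was at 0 in every library. On the CPM scale Slc25a23 was even across groups, at 409.9 ± 18.1 CPM in mature controls, 442 ± 36.2 in mature LERKO, 409 ± 40.6 in immature controls and 402 ± 32.5 in immature LERKO (SD, n = 4 each). Carriers of amino acids were led by Slc25a15, the ornithine and citrulline exchanger of the urea cycle, at 46.8 ± 10.7 CPM per kb, followed by Slc25a44, which carries branched-chain amino acids, at 22.1 ± 4.23 and Slc25a38, the glycine carrier needed for haem synthesis, at 6.79 ± 0.632. Slc25a2, the second ornithine carrier, had 0 to 5 reads per library.

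All 9 carriers of cofactors and nucleotides were tested, and together they held 5.83% of the family's CPM per kb. Slc25a51, the NAD carrier, led them at 17 ± 3.11, followed by Slc25a16, linked to coenzyme A, at 12.8 ± 1.15 and Slc25a42, a coenzyme A carrier, at 12 ± 1.67 CPM per kb. Slc25a33, a pyrimidine nucleotide carrier, stood at 9.98 ± 4.21, Slc25a17, the peroxisomal member, at 9.66 ± 1.33 and Slc25a32, the folate and FAD carrier, at 7.52 ± 1.72. Slc25a26 (S-adenosylmethionine) stood at 1.27 ± 0.0937 and Slc25a36 (pyrimidine nucleotides) at 0.236 ± 0.0768 CPM per kb. The relatives of the uncoupling proteins held 0.739% of the family, nearly all of it Slc25a30 at 8.27 ± 5.95, with Slc25a14 at 0.786 ± 0.138 and Slc25a27 at 0.253 ± 0.068 CPM per kb. Among members without a settled substrate, Slc25a45 stood at 5.44 ± 1.51, Slc25a48 at 4.11 ± 0.672, Slc25a34 at 3.77 ± 0.781 and Slc25a35 at 0.154 ± 0.0691 CPM per kb.

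The 6 members that were not tested are Slc25a2, Slc25a18, Slc25a31, Slc25a41, Slc25a43 and Slc25a54. Slc25a43 had at most 4 reads in a library, and Slc25a41 and Slc25a54 had none in any. A count of 0 over all libraries allows up to 0.00932 CPM (3 counts of 321898327), which covers counting error only. The transcripts of the 2 genes at 0 were thus not detectable at this depth. Slc25a35 overlaps Rangrf on the opposite strand over 1151 of 3677 exon bases, and with the strand setting of the counting unknown its low counts are uncertain.

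In mature mice, 0 of 40 members passed between LERKO and control (adjusted p below 0.05, edgeR quasi-likelihood test), against 0.00747% of all tested genes, which is Esr1 alone. Fold changes were small: 33 of 40 members (82.5%) had a 95% interval within 2-fold in either direction, against 81.2% of all tested genes. The members' median log2 fold change was -0.08, with 13 members positive (32.5%) and 27 negative. The number negative depended on the setting, from 22 without mature LERKO 3 to 31 with library size alone. It was 25 without mature control 1 and with the compared groups alone. Over all tested genes the median was -0.01 and 48.2% were positive. In bulk liver, fewer cells of a type and less RNA per cell cannot be told apart. An unadjusted p below 0.05 was reached by 5 members (12.5%), 2 higher and 3 lower, against 7.3% of all tested genes (3.45% higher and 3.85% lower): among them Slc25a45 higher, and Slc25a4, Slc25a28 and Slc25a25 lower. The count of 5 at an unadjusted p below 0.05 depended on single livers, and was 3 when mature control 1 or 3, mature LERKO 4, immature control 1 or 2 or 4 or immature LERKO 3 was left out. Leaving out mature LERKO 1 raised it to 7 (all genes 11.2%). It was 3 without the 3 livers with most muscle transcripts (all genes 2.66%). The groups did not overlap for 4 members (10%), 1 higher and 3 lower, against 3.9% of all tested genes (1.61% higher and 2.29% lower). By DESeq2 1 member passed here and 1 between control stages, Slc25a4 both times, and 0 in the other 5 comparisons; by limma-voom 0 passed in any of the 7.

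**Figure D2:**
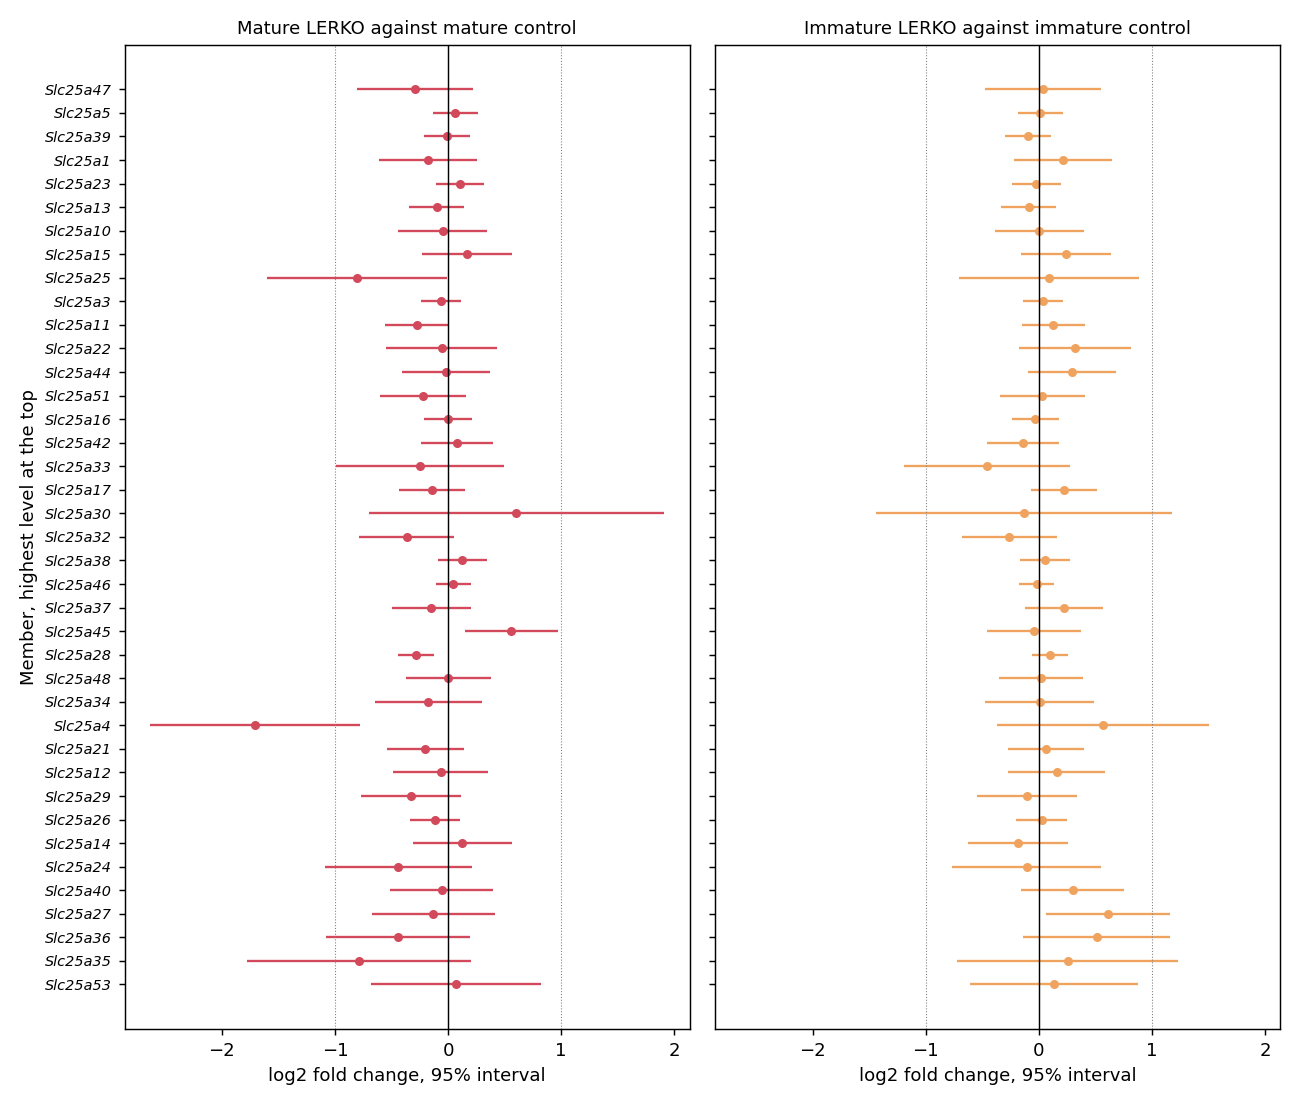
Log2 fold change of LERKO against control for 39 of the 40 tested members in mature (left) and immature mice (right), with points for the estimate and lines for its 95% interval; dotted lines mark 2-fold. Most intervals span 0, and the estimate farthest from it is Slc25a4 in mature mice at -1.71.

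Slc25a28 had the narrowest interval of the members at a low unadjusted p. It held 18.3, 17.3, 19.3 and 19.2 CPM in mature controls and 14.3, 14.8, 15.3 and 16.6 CPM in mature LERKO, so every mature LERKO liver was below every mature control. Immature livers were at 17.1, 17.6, 17.2 and 17.6 CPM without and 17.1, 19.7, 18.4 and 19.1 CPM with the knockout, which overlap each other and lie above mature LERKO. In mature mice the log2 fold change was -0.28 (SE 0.08, 95% interval -0.44 to -0.12), with an unadjusted p of 0.00193 and an adjusted p of 0.481 in edgeR, and did not pass. The mean level was 18.5 ± 0.923 CPM without and 15.3 ± 1.01 CPM with the knockout (SD, n = 4 each). Summed erythroid markers (8 genes, among them globins and Alas2) ran from 71.3 to 158 CPM in mature controls and from 89.9 to 158 CPM in mature LERKO, so these ranges overlap. Stellate marker sums did not overlap, at 282 to 388 CPM in mature controls and 70.8 to 270.4 CPM in mature LERKO, and endothelial sums were 193 to 274 and 91.3 to 217 CPM. Their part in this and the other mature differences was not tested. The other mitoferrin, Slc25a37, had a log2 fold change of -0.15 (SE 0.16).

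Slc25a45 lay the other way. Its levels were 15.2, 9.99, 16 and 12.9 CPM in mature controls, against 16, 16.6, 20.5 and 26.5 CPM in mature LERKO, with the lowest LERKO liver just above the highest control. Immature livers were at 11.5, 15.6, 16.5 and 10.4 CPM without and 14.9, 14.6, 10.8 and 12.1 CPM with the knockout, all but 1 of them within the range of the mature controls. The log2 fold change in mature mice was 0.56 (SE 0.19, 95% interval 0.15 to 0.97) and did not pass (unadjusted p = 0.0111, adjusted p = 0.565, edgeR). Library 4 of mature LERKO was the highest of all, and the fold change without it was 0.42.

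The promoters of Slc25a28 and Slc25a45 are shown because these are the members with an unadjusted p below 0.05 whose mature groups did not overlap, that of Slc25a47 because it is the highest member, and that of Slc25a1 for its variation between livers described further on. Sequences are the bases before the RefSeq start on GRCm38.p6, in the direction of transcription, trimmed where they would run into an annotated exon. That of Slc25a47 lies inside the GENCODE gene, whose longest model begins farther upstream than the RefSeq start. Capitals mark matches on either strand to the oestrogen response half-site AGGTCA and the GC box GGGCGG.
Slc25a28 (chr19:43674882-43675131, reverse strand): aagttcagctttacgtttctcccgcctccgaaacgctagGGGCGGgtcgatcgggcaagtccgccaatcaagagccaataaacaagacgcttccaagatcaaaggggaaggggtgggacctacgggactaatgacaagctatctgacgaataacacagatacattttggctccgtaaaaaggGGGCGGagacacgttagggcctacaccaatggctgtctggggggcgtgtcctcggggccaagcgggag
Slc25a45 (chr19:5877572-5877807, forward strand): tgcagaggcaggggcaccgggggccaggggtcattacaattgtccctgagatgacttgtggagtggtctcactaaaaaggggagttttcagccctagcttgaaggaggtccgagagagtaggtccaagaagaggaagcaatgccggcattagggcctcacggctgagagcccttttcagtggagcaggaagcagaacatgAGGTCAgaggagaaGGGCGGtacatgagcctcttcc
Slc25a47 (chr12:108850879-108851128, forward strand): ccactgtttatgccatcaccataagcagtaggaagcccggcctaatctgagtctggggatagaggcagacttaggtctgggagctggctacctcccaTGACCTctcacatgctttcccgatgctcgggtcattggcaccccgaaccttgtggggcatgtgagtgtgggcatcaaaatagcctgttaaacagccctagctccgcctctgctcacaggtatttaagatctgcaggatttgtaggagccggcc
Slc25a1 (chr16:17928220-17928469, reverse strand): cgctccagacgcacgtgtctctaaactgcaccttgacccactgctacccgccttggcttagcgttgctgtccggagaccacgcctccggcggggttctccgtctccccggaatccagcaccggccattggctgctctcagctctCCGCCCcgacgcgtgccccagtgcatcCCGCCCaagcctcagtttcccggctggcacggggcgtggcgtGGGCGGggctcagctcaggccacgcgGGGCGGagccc

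The RefSeq table held 45 promoters for 35 of the 46 members. Within 250 bases before the start, the palindromic oestrogen response element (GGTCA, 3 bases and its reverse complement) was in 0 of these 45 and in 0.0639% of all 32851 promoters. The half-site AGGTCA was in 4, those of Slc25a34, Slc25a39, Slc25a45 and Slc25a47, or 8.89% against 14% of all promoters. The GC box was in 31 (68.9%, against 32.7%), with 4 copies in that of Slc25a1 and 2 in that of Slc25a28. Member promoters had a median GC content of 57.6%, against 52.4% for all promoters, and its part in these shares was not tested. The TATA box TATAAA was in 2 (4.44%, against 12.4%) and the sterol regulatory element TCACNCCAC in 1 (2.22%, against 1.05%). Both strands were searched, a palindrome preceded by A also holds the half-site, and a match describes these letters only.

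Slc25a25 overlapped widely between groups. In mature controls it was at 555, 302, 669 and 303 CPM, in mature LERKO at 396, 188, 316 and 146 CPM, in immature controls at 255, 269.7, 369 and 426 CPM and in immature LERKO at 423, 498, 332 and 149 CPM. Mature controls 1 and 3 were the highest of all, and library 4 was the lowest in both LERKO groups. The log2 fold change in mature mice was -0.81 (SE 0.38) and did not pass (adjusted p = 0.683, edgeR). Library 4 of mature LERKO was the lowest liver for Slc25a25 and the highest for Slc25a45. It also held the fewest stellate (70.8 CPM), endothelial (91.3 CPM) and hepatocyte marker transcripts (87888 CPM) of all 16. Its sums of Kupffer cell and macrophage markers (351 CPM) and of cholangiocyte markers (56.8 CPM) were the highest, and its TMM factor (0.852) was the lowest. The part of these features in the values was not tested.

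Slc25a35 and Slc25a26 were the other members whose mature groups did not overlap, both lower in LERKO. Slc25a26 held 5.84, 5.81, 6.07 and 6.94 CPM in mature controls and 5.69, 5.78, 5.58 and 5.75 CPM in mature LERKO, with a gap between the groups that is a small part of the range among controls. Its log2 fold change was -0.11 (SE 0.10, unadjusted p = 0.29, adjusted p = 0.828, edgeR). Slc25a35 stood at 0.701 ± 0.0833 and 0.408 ± 0.0805 CPM (SD, n = 4 each), a difference of -0.78 on the log2 scale that did not pass (SE 0.47, adjusted p = 0.726, edgeR). Slc25a38 was at 18 ± 1.52 CPM without and 19.7 ± 2.26 CPM with the knockout (SD, n = 4 each), with a log2 fold change of 0.13 (SE 0.10). All 4 citric acid cycle carriers, all 3 tested members of the malate-aspartate group and all 4 glutathione and iron carriers had negative fold changes in mature LERKO, with medians of -0.19, -0.07 and -0.10, and 0 members of these 3 groups passed (edgeR, DESeq2 and limma-voom; 1 of them, Slc25a28, had an unadjusted p below 0.05). These signs were the same with RLE factors and with library size alone, which do not show how far they rest on single livers. Over all tested genes 48.2% were positive. Mature LERKO 3 was the lowest of all 16 livers for Slc25a10, Slc25a11, Slc25a12, Slc25a21 and Slc25a22, and for no other tested member of these groups. Slc25a10 held 133 CPM there and 205, 183 and 179 CPM in mature LERKO 1, 2 and 4. Its mean in mature controls was 181 CPM. Of the 9 cofactor and nucleotide carriers, 6 were negative and 3 positive (7 and 2 with library size alone), and 0 passed with any of the 3 tools.

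Slc25a4 had the largest fold change of the family and moved with muscle transcripts. Mature livers were at 30.6, 23.9, 7.95 and 5.34 CPM without and 5.23, 4.72, 4.87 and 5.92 CPM with the knockout, and immature livers at 4.25, 5.16, 4.62 and 4.54 CPM without and 4.28, 6.56, 5.08 and 11.6 CPM with it. Mature controls 1 and 2 and immature LERKO 4 stood above all other livers. The same 3 livers had the highest sums of 16 skeletal muscle markers: 919, 409, 0.67 and 60.5 CPM in mature controls 1 to 4, 1.22, 1.31, 2.59 and 1.3 CPM in mature LERKO, 1.14, 0.981, 0.502 and 0.738 CPM in immature controls and 0.92, 0.64, 1.06 and 168 CPM in immature LERKO. All 16 markers had reads in at least 1 library of the mature control and of the immature LERKO group, while 1 to 10 had any in a mature LERKO library and 1 to 2 in an immature control. Mature control 3, with 0.67 CPM of muscle markers, held 7.95 CPM of Slc25a4, above each mature LERKO liver, and mature control 4 held 5.34 CPM, within their range.

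Over all livers the log2 fold change of Slc25a4 in mature LERKO was -1.71 (SE 0.44, unadjusted p = 0.00128, adjusted p = 0.481, edgeR), which did not pass, whereas DESeq2 called it (adjusted p = 0.0403). Without the 3 livers with most muscle transcripts it was -0.36 (SE 0.20, unadjusted p = 0.0969, adjusted p = 1, edgeR), with mature controls 3 and 4 alone in that group. Slc25a5, the paralogue, had a log2 fold change of 0.06 (SE 0.09) and a 95% interval of -0.13 to 0.26.

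**Figure D3:**
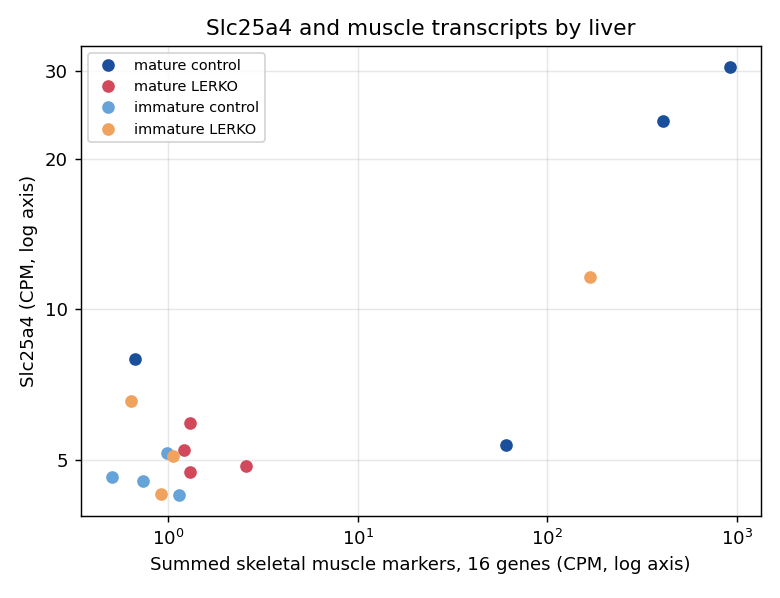
Slc25a4 against the sum of 16 skeletal muscle markers, both in CPM on log axes, with 1 point per liver coloured by group. The 3 livers with over 100 CPM of muscle markers, 2 mature controls and 1 immature LERKO, hold 30.6, 23.9 and 11.6 CPM of Slc25a4, and all others lie at 7.95 CPM or below.

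In immature mice, 0 of 40 members passed between LERKO and control in edgeR, against 0.00747% of all tested genes, again Esr1 alone. Of the members, 34 (85%) had a 95% interval within 2-fold, against 83.4% of all tested genes. The median was 0.04 beside 0.01 for all genes, with 27 members positive (67.5%, against 53.2% of all tested genes) and 13 negative. The number negative depended on the setting, from 9 with library size alone to 19 without immature control 1. It was 18 without immature LERKO 1 and 16 by limma-voom. The groups did not overlap for 0 members, against 1.63% of all tested genes, and 1 member (2.5%, against 2.76%, or 1.86% in the higher direction) had an unadjusted p below 0.05. That was Slc25a27, an uncoupling protein relative best known from brain, at 0.778, 0.981, 0.954 and 0.567 CPM in controls and 0.736, 1.44, 1.56 and 1.32 CPM in LERKO. It had 10 to 28 reads per library, and its log2 fold change of 0.61 (SE 0.26) had an adjusted p of 1 in edgeR. The count of 1 at an unadjusted p below 0.05 depended on single livers, and was 0 when immature control 1 or 4 or immature LERKO 2 or 4 was left out and 2 when mature LERKO 2, immature control 3 or immature LERKO 1 or 3 was left out. It was 0 by DESeq2 (all genes 2.85%), 0 by limma-voom (all genes 2.29%), 0 with the compared groups alone (all genes 2.66%) and 0 without the 3 livers with most muscle transcripts (all genes 1.42%).

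Slc25a36 and Slc25a44 followed among the higher members in immature LERKO, without passing. Slc25a36 stood at 1.81 ± 0.452 and 2.58 ± 1.13 CPM and Slc25a44 at 69.4 ± 17.5 and 85 ± 24 CPM in immature controls and LERKO (SD, n = 4 each). On the lower side were Slc25a33, Slc25a32 and Slc25a39, with log2 fold changes of -0.46 (SE 0.34), -0.26 (SE 0.20) and -0.10 (SE 0.10). Slc25a33 was split within immature LERKO, at 8.09, 23.8, 34.1 and 9.84 CPM, while immature controls held 27.2, 31.9, 16.8 and 28 CPM. Livers 1 and 4 of immature LERKO were the lowest of all 16 for this nucleotide carrier and liver 3 the highest. All 4 citric acid cycle carriers had positive fold changes in immature LERKO under each scaling, with a median of 0.09 and a range from 0.0039 to 0.21. Of them, 0 passed (edgeR, DESeq2 and limma-voom) and 0 had an unadjusted p below 0.05. Slc25a1 held 317 CPM in immature LERKO 4 and 186, 149.8 and 173 CPM in libraries 1 to 3, with a mean of 178 CPM in immature controls. Signs of this group with single livers left out were not counted.

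Averaged over both stages, 0 members passed for the knockout, against 0.00747% of all tested genes, and 1 (2.5%, against 3.69%, or 1.67% in the lower direction) had an unadjusted p below 0.05. The count of 1 at an unadjusted p below 0.05 depended on single livers, and was 0 when mature LERKO 3 or 4, immature control 2 or 4 or immature LERKO 1 was left out, 2 when mature control 3, mature LERKO 2, immature control 3 or immature LERKO 2 or 4 was left out and 3 when mature LERKO 1 was left out. It was 0 with a filter of 1 CPM in 4 libraries (all genes 3.91%). This contrast uses all 16 livers and has the narrower intervals: 38 of 40 members (95%) lay within 2-fold and 30 (75%) within 1.5-fold, against 93.8% and 76.8% of all tested genes. The member with an unadjusted p below 0.05 was Slc25a32, at 49.2 ± 12.2 CPM in mature controls, 38.1 ± 8.07 in mature LERKO, 52.1 ± 10.4 in immature controls and 43.5 ± 8.63 in immature LERKO (SD, n = 4 each). Its log2 fold change was -0.31 (SE 0.14, unadjusted p = 0.0389, adjusted p = 0.999, edgeR). Slc25a45 at 0.26 (SE 0.14) and Slc25a15 at 0.20 (SE 0.13) were on the higher side without passing.

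Whether the knockout effect differed between stages was tested directly, and 0 of 40 members passed (against 0% of all tested genes, edgeR). At an unadjusted p below 0.05 there were 5 members (12.5%, against 6.35% of all tested genes, 2.01% higher and 4.34% lower), Slc25a4, Slc25a28, Slc25a36 and Slc25a11 with a lower and Slc25a45 with a higher effect in mature mice. The count of 5 at an unadjusted p below 0.05 depended on single livers, and was 2 when mature control 2 or mature LERKO 3 was left out and 3 when mature control 1 or 4, immature control 1 or 3 or immature LERKO 3 was left out. The count was 6 without mature LERKO 1 (all genes 8.45%) and with library size alone (all genes 8.01%). It was 3 by limma-voom (all genes 5.77%) and 2 without the 3 livers with most muscle transcripts (all genes 1.45%). For Slc25a28 the difference was -0.38 on the log2 scale (SE 0.11, unadjusted p = 0.00292, adjusted p = 0.609, edgeR). For Slc25a45 it was 0.60 (SE 0.28, adjusted p = 0.774, edgeR), and for Slc25a36 -0.95 (SE 0.43, adjusted p = 0.773, edgeR). Slc25a11 stood at 83 ± 2.44 CPM in mature controls, 68.7 ± 11.9 in mature LERKO, 73.1 ± 9.09 in immature controls and 79.9 ± 12.6 in immature LERKO (SD, n = 4 each), a difference of effects of -0.40 (SE 0.19). For Slc25a4 the difference was -2.27 (SE 0.62), and -0.55 (SE 0.27) without the 3 livers with most muscle transcripts. Among the higher differences, Slc25a14 (0.31, SE 0.29) and Slc25a42 (0.22, SE 0.21) were smaller than 2 standard errors. The median of the members was -0.16, beside -0.01 for all genes.

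Between control stages, 0 of 40 members passed for mature against immature, and 0% of all tested genes, in edgeR. The median was 0.04 (0.02 for all genes), and 1 member (2.5%, against 9.84%, or 7.56% in the higher direction), Slc25a4, had an unadjusted p below 0.05. The count of 1 at an unadjusted p below 0.05 depended on single livers, and was 2 when immature control 2 or immature LERKO 3 was left out, 3 when mature LERKO 4 or immature LERKO 1 was left out and 5 when immature control 3 was left out. It was 2 by DESeq2 (all genes 10.6%), 6 with library size alone (all genes 11.2%) and 6 with the compared groups alone (all genes 16.3%). The log2 fold change of Slc25a4 was 1.86 (SE 0.44, unadjusted p = 0.000655, adjusted p = 0.235, edgeR), with every mature control above every immature control, and DESeq2 called it (adjusted p = 0.00645). Without the 3 livers with most muscle transcripts it was 0.51 (SE 0.20, adjusted p = 0.998, edgeR). The groups did not overlap for 4 members (10%), against 8.86% of all tested genes (6.11% higher and 2.75% lower): Slc25a4 and Slc25a22 higher, and Slc25a46 and Slc25a13 lower in mature controls.

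Slc25a22 held 192, 166, 159.6 and 166 CPM in mature and 129, 139, 112 and 124 CPM in immature controls, a difference of 0.44 on the log2 scale (SE 0.23, adjusted p = 0.583, edgeR). In LERKO it ranged more widely, at 163, 147, 101 and 247 CPM in mature and 129, 173, 106 and 220.4 CPM in immature livers, so the stages overlapped there. Slc25a46 held 32.1, 31.5, 34.3 and 30.5 CPM in mature and 35.9, 36.2, 34.3 and 34.3 CPM in immature controls, with the highest mature control only just below the lowest immature one. Its log2 fold change was -0.13 (SE 0.07, adjusted p = 0.61, edgeR). Slc25a5 (-0.13, SE 0.09) and Slc25a33 (-0.66, SE 0.34) were also on the lower side, and Slc25a36 (0.58, SE 0.30) on the higher, without passing. Endothelial and stellate marker sums differed alongside, at 193 to 274 and 282 to 388 CPM in mature and 127 to 193 and 178 to 234 CPM in immature controls, and their part in these values was not tested.

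Between LERKO stages, 0 of 40 members passed (and 0% of all tested genes, edgeR), with a median of -0.12 beside 0.00 for all genes. Of the members, 12 were positive (30%, against 50.4% of all tested genes) and 28 negative. The number negative was 26 without immature LERKO 4, 30 with library size alone and 31 without mature LERKO 4. Slc25a28, Slc25a45 and Slc25a37 had an unadjusted p below 0.05 (7.5% of members, against 4.93%, 3.09% higher and 1.84% lower). The count of 3 at an unadjusted p below 0.05 depended on single livers, and was 5 when immature LERKO 1 or 2 was left out and 8 when mature LERKO 1 was left out. Leaving out mature control 3 or 4, immature control 2 or immature LERKO 3 or 4 lowered it to 2. The count was also 2 with the compared groups alone (all genes 2.45%) and without the 3 livers with most muscle transcripts (all genes 4.46%). Slc25a28 was at -0.28 on the log2 scale (SE 0.08, adjusted p = 0.951, edgeR) and Slc25a45 at 0.60 (SE 0.20, adjusted p = 0.951, edgeR). These values share the mature LERKO livers with the comparison of mature LERKO and control, so they are not separate evidence. Slc25a37 (-0.36, SE 0.16) and Slc25a17 (-0.27, SE 0.14) were on the lower side in mature LERKO without passing, and Slc25a17 stood at 25.4 ± 5.55 and 30.5 ± 2.68 CPM (SD, n = 4 each). The groups did not overlap for Slc25a28, Slc25a45 and Slc25a26 (7.5% of members, against 1.52%, 0.882% higher and 0.635% lower).

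Averaged over both genotypes, 0 members passed for stage, and 0% of all tested genes. At an unadjusted p below 0.05 there were 4 members (10%, against 7.92%, 5.43% higher and 2.49% lower): Slc25a4, Slc25a15 and Slc25a45 higher and Slc25a33 lower in mature mice. The count of 4 at an unadjusted p below 0.05 depended on single livers, and was 0 when mature control 1, immature control 1 or immature LERKO 3 was left out, 1 when immature control 4 was left out and 2 when mature control 2 or 3, mature LERKO 4 or immature LERKO 2 was left out. Leaving out mature LERKO 1 (all genes 8.23%) or immature LERKO 4 (all genes 11.6%) raised it to 6. It was 1 by limma-voom (all genes 7.32%) and 1 without the 3 livers with most muscle transcripts (all genes 8.26%). Slc25a15 held 293, 259.9, 284 and 262 CPM in mature controls, 261, 274, 268 and 429 in mature LERKO, 179, 227, 265 and 194 in immature controls and 298, 215, 190.1 and 318 in immature LERKO. Library 4 of mature LERKO was the highest, and the immature livers reached both below and above the mature controls. The log2 fold change was 0.31 (SE 0.13, unadjusted p = 0.0349, adjusted p = 0.602, edgeR). Slc25a33 held 14.5, 12.7, 20.3 and 18.4 CPM in mature controls and 14.4, 14, 11.9 and 15.3 in mature LERKO, and the value was -0.55 on the log2 scale (SE 0.25, adjusted p = 0.603, edgeR) against the immature livers given above.

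**Figure D4:**
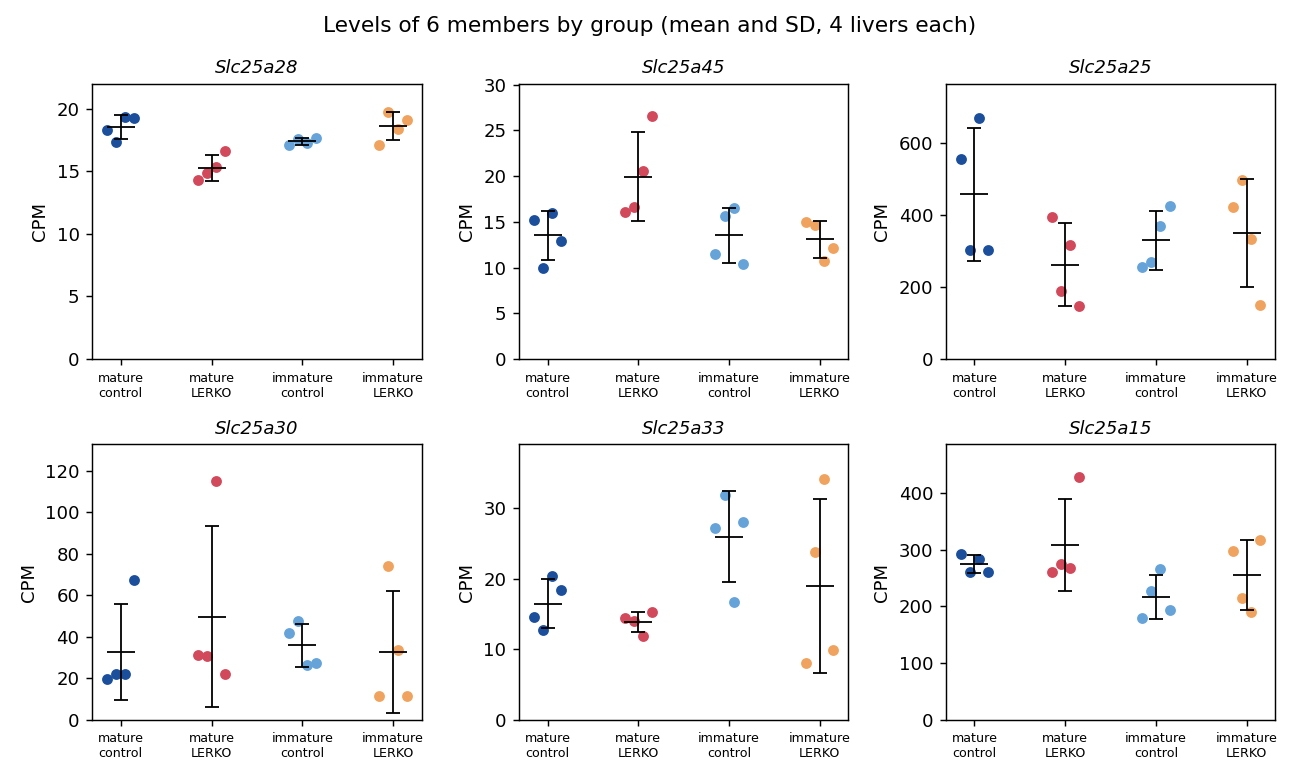
CPM of 6 members in the 4 groups, with 1 point per liver and black marks for the mean and SD of 4 livers; axes start at 0. Slc25a28 is lower in all 4 mature LERKO livers than in all mature controls, Slc25a45 is higher, and the other 4 members overlap between LERKO and control at each stage, with single high livers for Slc25a30 (115 CPM) and Slc25a15 (429 CPM).

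Members differed widely in how much they varied between livers of 1 group. Within groups the median SD of the members was 0.281 on the log2 scale, beside 0.243 for all tested genes. The steadiest were Slc25a3 (0.0742), Slc25a28 (0.0745) and Slc25a46 (0.0772), each below at least 99% of all tested genes, and Slc25a3 held 197 to 245 CPM over all 16 livers. The most variable was Slc25a30 (0.957), which spanned a 9.98-fold range. It held 19.7, 21.8, 22.1 and 67.5 CPM in mature controls, 31.3, 31, 115 and 21.9 in mature LERKO, 41.9, 47.5, 26.6 and 27.4 in immature controls and 11.5, 73.9, 33.6 and 11.7 in immature LERKO. High livers occurred in both genotypes and stages, and immature LERKO 1 and 4 were the lowest, as they were for Slc25a33. Library 3 of mature LERKO had the lowest level of all 16 livers for 11 of the 40 members, among them Slc25a47, Slc25a10 and Slc25a32. It had the highest for 3. Library 4 of mature LERKO had the highest level for 8, among them Slc25a15 and Slc25a45, and the lowest for 6, among them Slc25a25 and Slc25a13.

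Slc25a1 varied together with Acly, the ATP citrate lyase that splits the citrate it exports. Slc25a1 held 222, 222, 183 and 222 CPM in mature controls, 211, 172, 179 and 190.2 in mature LERKO, 139.8, 189, 234 and 149 in immature controls and 186, 149.8, 173 and 317 in immature LERKO. Acly held 574, 568, 286 and 451 CPM, 387, 226, 359.7 and 171, 84.3, 263, 580.3 and 87.6 and 415, 189, 176 and 1978 CPM in the same order. Immature LERKO 4 was the highest for both, and immature controls 1 and 4 were the lowest for both. Over the 16 livers Pearson's r of log2 CPM was 0.941 (permutation p = 2e-05, the smallest these permutations can give; adjusted p = 0.0001 over 5 carrier and enzyme pairs) and Spearman's rho 0.876 (permutation p = 0.00012, adjusted p = 0.0006). Without the 2 livers farthest from the median of Slc25a1 r was 0.865, and with group means removed 0.942. Acly spanned a wider range than Slc25a1, 23.4-fold against 2.27-fold. The 5 pairs were chosen after levels had been seen.

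**Figure D5:**
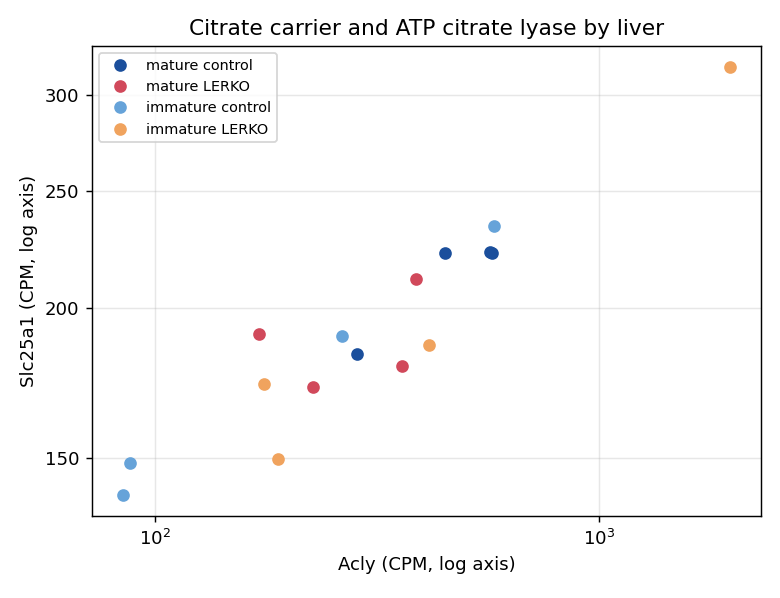
Slc25a1 against Acly in CPM on log axes, 1 point per liver coloured by group. The points rise together from immature control 1 (139.8 CPM of Slc25a1, 84.3 CPM of Acly) to immature LERKO 4 (317 and 1978 CPM), and livers of every group lie along the trend.

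None of 3 further pairs passed after adjustment over the 5. For Slc25a13 and Got1, the cytosolic aspartate aminotransferase of the malate-aspartate shuttle, r was -0.502 (permutation p = 0.0447, adjusted p = 0.112) and rho -0.45 (permutation p = 0.0836, adjusted p = 0.209). For Slc25a15 and Otc, ornithine transcarbamylase, r was 0.0383 (permutation p = 0.899, adjusted p = 0.899). For Slc25a44 and Bcat2, the mitochondrial branched-chain aminotransferase, r was 0.26 (permutation p = 0.331, adjusted p = 0.552). Spearman's rho for the last 2 pairs was 0.0471 and 0.312, with adjusted permutation p of 0.864 and 0.396. Without the 2 livers farthest from the carrier's median the 3 values of r were -0.563, 0.289 and 0.32, and with group means removed -0.408, -0.0632 and 0.365.

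Of 50 tested genes on 4 lists of related function, 0 passed in any of the 7 comparisons with edgeR, DESeq2 or limma-voom. In mature LERKO against control 1 of them had an unadjusted p below 0.05 in edgeR, against 7.3% of all tested genes, and in immature LERKO 0 had, against 2.76%, so both are below the share over all genes. The first was Gpd1, the cytosolic glycerol phosphate dehydrogenase that hands reducing power to mitochondria, at 0.49 on the log2 scale (SE 0.22, adjusted p = 0.674, edgeR). Of 13 tested genes of carrier import through the TOM and TIM22 complexes, 5 were positive and 8 negative in mature LERKO (3 and 10 with library size alone; median -0.02), and all 13 had a 95% interval within 2-fold in both knockout comparisons. Tomm6 and Tomm7, small subunits of the outer membrane translocase, were the highest per kb, at 60.8 ± 3.1 and 44.8 ± 3.82 CPM in mature controls and 60.2 ± 7.61 and 43.7 ± 4.87 CPM in mature LERKO (SD, n = 4 each). Of the carrier homologues with other symbols, Mtch2 and Mtch1, carrier relatives of the outer membrane, stood at 107 ± 4.38 and 66.6 ± 4.5 CPM in mature controls and 107 ± 12.4 and 64.9 ± 3.24 CPM in mature LERKO (SD, n = 4 each).

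Among 17 other tested mitochondrial membrane transporters, 7 were positive and 10 negative in mature LERKO (3 and 14 with library size alone) and 12 positive and 5 negative in immature LERKO (14 and 3), with medians of -0.10 and 0.04. Mpc1, a subunit of the mitochondrial pyruvate carrier, stood at 185 ± 5.66 CPM in mature controls, 173 ± 25 in mature LERKO, 216 ± 12.9 in immature controls and 206 ± 42.8 in immature LERKO (SD, n = 4 each). Vdac1, the main outer membrane channel, stood at 200.1 ± 4.42 CPM in mature controls, 181 ± 12.4 in mature LERKO, 190.4 ± 16.3 in immature controls and 191 ± 23.2 in immature LERKO (SD, n = 4 each). Of 17 enzymes that use the carried metabolites, 3 were positive and 14 negative in mature LERKO (median -0.10), and 11 positive and 6 negative in immature LERKO (median 0.09). Over all tested genes 48.2% were positive in mature and 53.2% in immature LERKO. The signs on these lists were not counted with single livers left out. Cps1, carbamoyl phosphate synthetase of the urea cycle, stood at 4167 ± 595 CPM in mature controls, 3815 ± 519 in mature LERKO, 3241 ± 836 in immature controls and 3637 ± 1167 in immature LERKO, and Glud1, glutamate dehydrogenase, at 1130 ± 20.4 CPM in mature controls, 1246 ± 152 in mature LERKO, 1287 ± 49.9 in immature controls and 1151 ± 192 in immature LERKO (SD, n = 4 each).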

How the data were processed

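Liver RNA of 16 mice was sequenced as stranded, paired-end mRNA libraries, per the labels' protocols. The submitters' processing notes name the build mm10 and the tools STAR, limma and R 4.05, without their roles; no counting program, annotation or strand setting is stated in the sources used here. The authors deposited 1 count per gene and library, with no normalization visible. In 5 columns the deposited values are best called estimated counts, since 2 predicted genes, no members, hold 10 values that are not whole, which were rounded. Samples were grouped by the group label. Results for some genes of the family and its lists are not reported here, and counts and shares over members refer to 46 of the 47 genes with such a symbol.

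Genes were kept by filterByExpr (minimum count 10, minimum total 15), given TMM factors (0.852 to 1.07), then tested in edgeR 4.0.16 (glmQLFit, glmQLFTest; R 4.3.3) in 1 model of 4 groups, with Benjamini-Hochberg adjustment over 13379 genes and a threshold of 0.05. Standard errors are the log2 fold change over the square root of F. The fit was tested on simulated counts. Exon lengths and positions are from GENCODE vM21 on GRCm38 (35465 of 35502 identifiers matched), promoters from RefSeq. Correlations used 100000 permutations.

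Values were given for members past the threshold, the 3 with the smallest p in each direction of each comparison, the 8 highest per kb, the highest of each role and those whose groups did not overlap in a knockout comparison. Members, lists and alternatives were chosen with earlier results of these data known. Alternatives were DESeq2 1.42.0, limma-voom (3.58.1), RLE factors, library size alone, other filters, the compared groups alone, each library left out, and the 3 livers with most muscle transcripts left out.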

Additional observations from a re-analysis of the deposited data

Results flagged for a closer look

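In 4 of 116 groups of 4 livers examined for the 29 members named by rule, 1 liver lay far outside the other 3 (gap to the nearest liver over the whole range, Dixon's ratio at 95%). Chance gives about 1 in 20, so this count is below the share given by chance. Slc25a30, the uncoupling protein relative, stood at 67.5 CPM in mature control 4 against 19.7 to 22.1 CPM in the other mature controls, and at 115 CPM in mature LERKO 3 against 21.9 to 31.3 CPM in the other 3. Slc25a15, the ornithine carrier, stood at 429 CPM in mature LERKO 4 against 261 to 274 CPM in the other 3. Slc25a1, the citrate carrier, stood at 183 CPM in mature control 3, where each of the other 3 held 222 CPM.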

How the results depend on the processing

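With DESeq2, 1 member passed in mature LERKO against control and 1 between control stages, Slc25a4 in both. In every other setting run, 0 members passed in any of the 7 comparisons. Over all genes DESeq2 called 27 for mature and 13 for immature LERKO against control, 74 and 6 between control and LERKO stages, 3 for the averaged knockout, 29 for the averaged stage and 22 for the difference of effects; with the compared control groups alone edgeR called 6 between stages. With single libraries left out, genes called ran from 1 to 2 for mature LERKO against control (2 without mature LERKO 1), 0 to 1 between control stages (1 without mature LERKO 4) and 0 to 1 between LERKO stages (1 without mature LERKO 1). Of 1037 values of named members under alternatives, 1035 kept their direction and side of the threshold, and the other 2 are the DESeq2 calls of Slc25a4. Because these members did not pass in the main fit and were mostly named by smallest p, this outcome was largely fixed beforehand. It does not describe the size of effects: Slc25a4 in mature LERKO counts as kept at -0.36 without the 3 muscle-rich livers, against -1.71 with all livers. Scaling by library size alone gave members' medians of -0.16 (mature LERKO against control), 0.0936 (immature), 0.12 (control stages) and -0.29 (difference of effects), where the median of all genes itself moved by -0.12. The last median was -0.10 without the 3 livers with most muscle transcripts. With single libraries left out it ran from -0.237 (mature control 4) to -0.0936 (mature LERKO 3), and that between LERKO stages from -0.181 (mature LERKO 1) to -0.0935 (mature LERKO 3); the cause was not tested. The r of Slc25a1 and Acly ran from 0.871 to 0.972 over all alternatives. That of Slc25a15 and Otc changed sign, to -0.015 with RLE factors and -0.0462 without the muscle-rich livers, and ran from -0.204 to 0.462 with single libraries left out; the cause was not tested. These correlation alternatives were chosen after seeing the data. No paired analysis was possible because the labels give no shared replicate numbers. Intervals of members below about 1 CPM are limited by their few reads.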
